A study of Mus musculus with 18 samples.

Results

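The carbonic anhydrases are a family of zinc enzymes that hydrate carbon dioxide to bicarbonate and a proton. Cells use them to buffer pH, to move bicarbonate and chloride across membranes and to export acid, and in the nervous system they are known from glia, myelin, choroid plexus and neurons. Some members work in the cytosol, others face the outside of the cell on a membrane anchor, and a few have lost the zinc-binding residues and no longer act as enzymes. The members described here are the 10 genes Car2, Car3, Car4, Car7, Car8, Car9, Car11, Car12, Car13 and Car14, taken from the 30869 gene symbols of the array by their symbol in the probe annotation. They were selected on the measured differences between the conditions below, so their differences are given as a description of the arrays and without p-values. They have 16 of the 45281 probes, 3 for Car9, 2 each for Car2, Car8, Car12 and Car14, and 1 for each of the others. Where there is more than 1 probe, the values are those of the probe that was brightest over all arrays.

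The cells were ESD3 (D3) mouse embryonic stem cells of strain 129s2/SvPas, grown on a layer of mouse embryo fibroblasts and differentiated by a protocol for dopaminergic neurons. Control cells carried a short hairpin RNA (shRNA) against luciferase and HPRT-knockdown cells an shRNA against HPRT, the purine salvage enzyme whose loss causes Lesch-Nyhan disease. The shRNA came in a retrovirus according to the sample labels and in a lentiviral vector, with puromycin selection, according to the methods. Both were sampled as undifferentiated ES cells, as spherical neural masses (SNM) and as cells of the final neuronal stage, which gives 6 conditions with 3 Illumina arrays each. The 3 arrays of a condition measured 1 pool of RNA from replicate cultures. Each standard error below is therefore an error of measuring 1 pool, how far cultures vary is not covered, and a difference is one between RNA pools.

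Signals are background-corrected, quantile-normalised log2 values, on which a difference of 1 is a doubling. A probe counts as detected in a condition when its detection p-value, its rank among negative-control beads, was under 0.05 on all 3 arrays. Each array detected between 18827 and 22202 probes, and the median SD of a probe within a condition was 0.0876 to 0.1201. Hprt1, the target of the knockdown, was 12.04, 11.20 and 11.05 in control ES, SNM and neuronal cells and 7.95, 9.44 and 6.60 in the knockdown cells. The RNA of the neuronal stage held markers of several cell types. Of 10 neuron markers, 8 were detected in the control pool and 7 in the knockdown pool, where Tubb3 was not. Of the 8 tested between these pools, 5 were lower and none higher in the knockdown pool by the threshold given below. Their median log2 fold change was -1.55. Of 14 skeletal muscle markers, 13 were detected at that stage in the control pool and 6 in the knockdown pool. Of 12 oligodendrocyte markers, 9 were detected in the control pool and all 12 in the knockdown pool. All 8 ES cell markers were detected in both. By protein, the paper reports a high and similar share of cells positive for tyrosine hydroxylase in both kinds of cell. It also reports staining for β-III tubulin, the product of Tubb3, in both. By qPCR, it reports that β-III tubulin RNA rose in control cells and failed to rise in knockdown cells. The paper itself calls its RNA and staining results for this marker apparently discrepant. In such bulk RNA, fewer cells of a type and less RNA per cell cannot be told apart.

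Of the 10 members, 8 were detected in at least 1 condition. Car7, a cytosolic enzyme known from neurons, lay between 4.26 and 4.58 on the 18 arrays and was not detected in any condition. Both probes of Car8, a member without enzyme activity that binds the inositol trisphosphate receptor Itpr1, lay between 4.19 and 4.37 and were not detected either. The probe of that receptor was detected at every stage and differed between knockdown and control neuronal cells by -0.46 (standard error 0.07) on the log2 scale, under the 1.5-fold used here as a threshold. A member is called higher or lower below when its adjusted p (Benjamini-Hochberg, limma model of all 18 arrays) was under 0.05 and its fold change 1.5 or more. The calls only mark which differences were large against the array error, since the same differences chose the members.

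**Figure D1:**
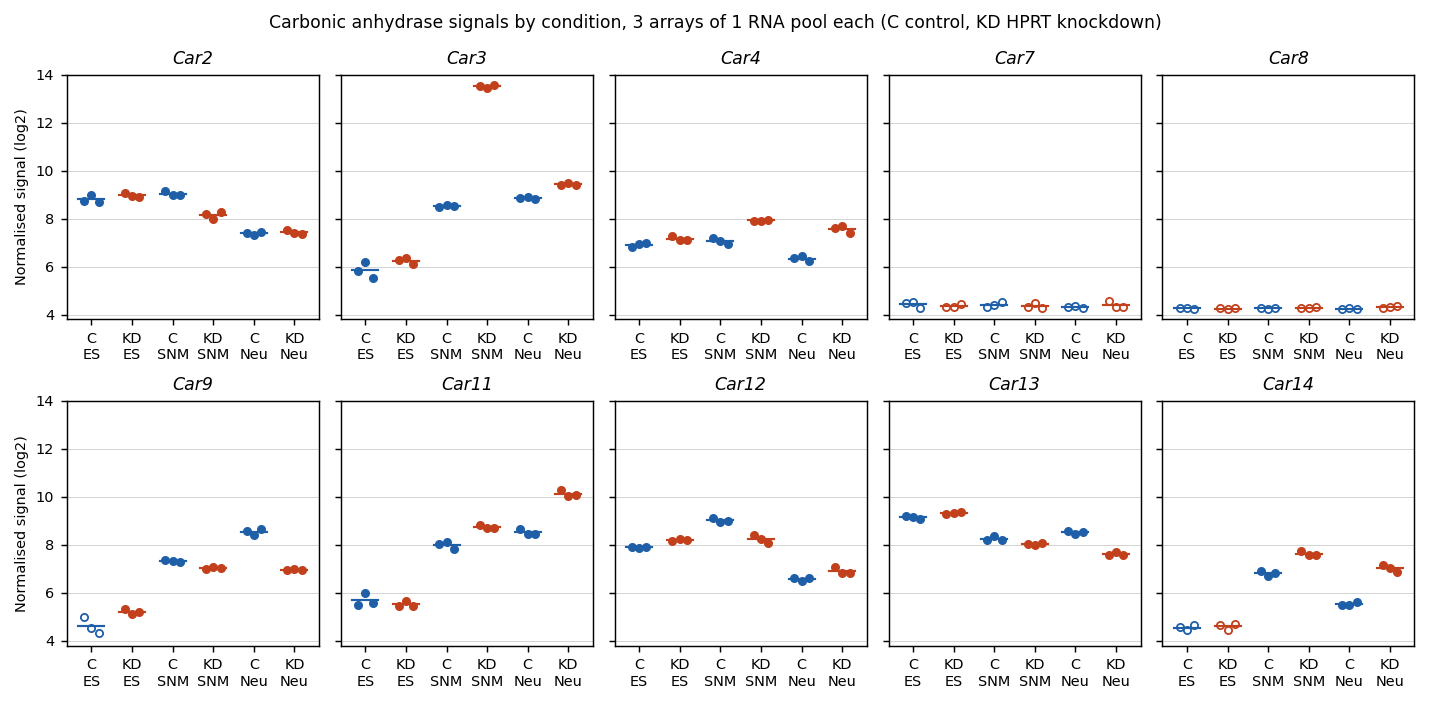
Normalised log2 signal of the brightest probe of each carbonic anhydrase (y axis) on the 3 arrays of each condition (x axis, C control in blue, KD HPRT knockdown in red, Neu neuronal stage), with the mean as a bar. Open points mark conditions in which the probe was not detected on all 3 arrays. Car3 stands at 13.51 in knockdown SNM cells and at 8.52 in control SNM cells, and Car7 and Car8 stay at the bottom in every condition.

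Among the cytosolic enzymes, Car3 had the widest range over the conditions, 7.65 between the lowest and the highest mean. Car3 is a slow carbon dioxide hydratase known from skeletal muscle, fat and liver. Its signals were 5.82, 6.20 and 5.53 in control and 6.28, 6.34 and 6.12 in knockdown ES cells, and the arrays of these conditions overlapped. At the SNM stage they were 8.49, 8.55 and 8.52 in control and 13.54, 13.42 and 13.56 in knockdown cells. In neuronal cells they were 8.86, 8.88 and 8.83 in control and 9.40, 9.48 and 9.39 in knockdown cells. The knockdown arrays lay far above the control arrays at the SNM stage and a little above them at the neuronal stage. The knockdown SNM pool was thus 4.99 (standard error 0.12) above the control pool on the log2 scale, 31.7-fold. At the neuronal stage the difference was 0.56, or 1.48-fold, the member just outside the threshold. Within control cells, Car3 was 6.34-fold higher in SNM than in ES cells and moved by only 0.34 on the log2 scale from there to the neuronal stage. Within knockdown cells it was 153-fold higher in SNM than in ES cells and then 16.9-fold lower in neuronal than in SNM cells.

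Car2, the fast cytosolic enzyme known from red cells, kidney, osteoclasts and oligodendrocytes, moved the other way at the SNM stage. Its signals were 8.73, 8.98 and 8.71 in control and 9.09, 8.93 and 8.90 in knockdown ES cells, with overlap. In SNM cells they were 9.15, 8.9999 and 8.98 in control and 8.20, 7.98 and 8.29 in knockdown cells. In neuronal cells they were 7.41, 7.31 and 7.43 in control and 7.53, 7.42 and 7.34 in knockdown cells. Only at the SNM stage did the arrays of the 2 pools stand apart, with the knockdown pool lower by 1.85-fold (log2 fold change -0.89, standard error 0.09). At the neuronal stage they overlapped and the means differed by 0.05. Both kinds of cell held less Car2 signal in neuronal than in SNM cells, 3.16-fold less in control and 1.66-fold less in knockdown cells. The other Car2 probe was not detected in any condition.

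Car13, a cytosolic enzyme of broad distribution, was highest in ES cells. It was 9.19, 9.17 and 9.06 in control and 9.30, 9.33 and 9.37 in knockdown ES cells. In SNM cells it was 8.19, 8.38 and 8.22 in control and 8.02, 8.003 and 8.08 in knockdown cells, and in neuronal cells 8.58, 8.47 and 8.52 against 7.59, 7.71 and 7.57. The knockdown arrays lay above the control arrays at the ES stage and below them at both later stages. The difference passed 1.5-fold at the neuronal stage, where it was -0.90 (standard error 0.06), a signal 1.86-fold lower in the knockdown pool. Against ES cells, Car13 was 1.84-fold lower in control SNM and 2.46-fold lower in knockdown SNM cells.

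Car13, Car3 and Car2 are neighbours on chromosome 3, in the order Car13, Car1, Car3, Car2 in the RefSeq annotation of GRCm38.p6. Car1, the other red cell enzyme of that cluster and no member here, was not detected in any condition other than knockdown SNM cells, with 6.49, 6.11 and 6.39. There it was at least 2.96-fold above control SNM cells (adjusted p = 1.2e-09 from limma), whose signals of 4.62, 4.34 and 4.52 were not above background. The knockdown SNM pool thus held more signal of Car1 and Car3, less of Car2, and a Car13 signal that differed by -0.23. The neighbouring genes were listed after these values were seen. Of those outside the cluster with a probe, E2f5 was detected, and it differed between knockdown and control SNM cells by -0.41. Slc7a12, Lrrcc1 and Sirpb1 were not detected in any condition.

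**Figure D2:**
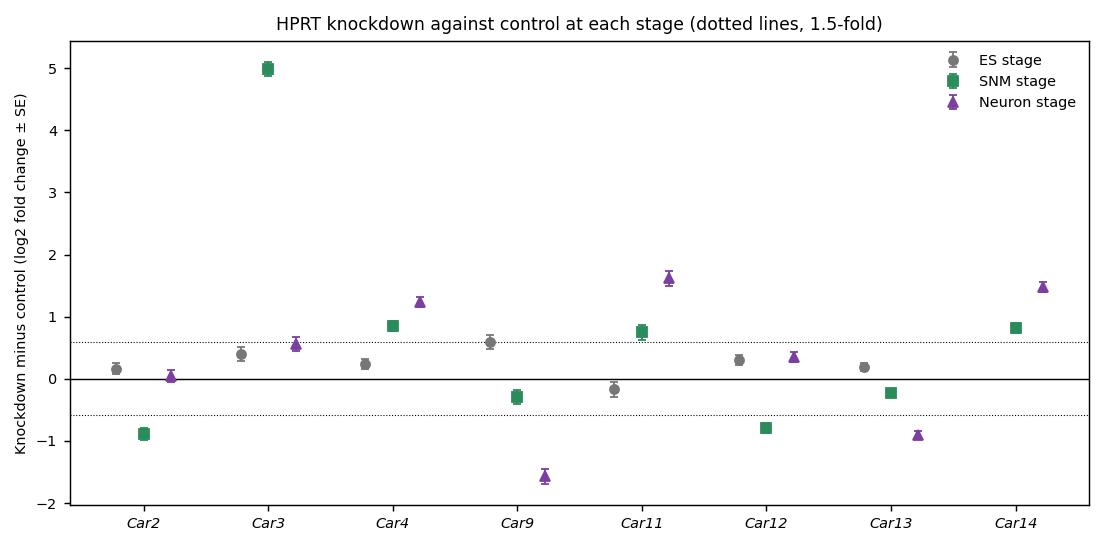
Knockdown minus control log2 fold change (y axis) with its standard error from limma for the 8 detected members (x axis) in ES, SNM and neuronal cells, with dotted lines at 1.5-fold. Car14 has no ES value because it was not detected there. Car3 at the SNM stage stands at 4.99 while the other values lie between -1.57 and 1.62.

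Car4, Car9, Car12 and Car14 hold their catalytic domain outside the cell, Car4 on a lipid anchor and the others on a membrane-spanning segment. Car9 is the family member best known as a target of the hypoxia-inducible factors. These factors bind DNA at a short core, which was searched here only in its form ACGTG. To show where that core lies, the 250 bases before the start site of Car9 at chr4:43506776-43507025 are printed beside those of Car4 at chr11:84957504-84957753, both on the plus strand of GRCm38.p6 as RefSeq gives them, with the core or its reverse complement CACGT in capitals.
Car9: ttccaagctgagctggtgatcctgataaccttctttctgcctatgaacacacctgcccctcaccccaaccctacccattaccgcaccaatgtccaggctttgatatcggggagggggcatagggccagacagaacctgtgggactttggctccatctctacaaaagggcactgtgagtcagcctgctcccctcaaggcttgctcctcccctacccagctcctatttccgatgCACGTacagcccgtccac
Car4: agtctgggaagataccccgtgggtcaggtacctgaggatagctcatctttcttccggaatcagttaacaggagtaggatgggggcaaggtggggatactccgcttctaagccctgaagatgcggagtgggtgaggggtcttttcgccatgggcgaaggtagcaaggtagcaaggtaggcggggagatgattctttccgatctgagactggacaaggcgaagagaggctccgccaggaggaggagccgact
Car9 held 1 match, on the other strand, with its last base 14 bases before the start site, and Car4 held none. Windows were at hand for 6 of the members, Car4, Car7, Car9, Car11, Car12 and Car14. Car14 had 1 match on the other strand, and the windows of Car7, Car11 and Car12 had none. Of all 32851 promoter windows of that length, 16.6% held the motif on either strand, and a match is a run of letters and not a measured site.

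Car9 was lowest in ES cells and highest in control neuronal cells. Its signals were 4.98, 4.54 and 4.34 in control ES cells, where 1 of the 3 arrays detected it, and 5.32, 5.10 and 5.21 in knockdown ES cells. In SNM cells they were 7.38, 7.31 and 7.30 in control and 6.995, 7.07 and 7.04 in knockdown cells. In neuronal cells they were 8.57, 8.40 and 8.66 in control and 6.95, 6.99 and 6.97 in knockdown cells. Here the knockdown arrays lay above control at the ES stage and below control at both later stages. At the neuronal stage the knockdown pool was 2.97-fold lower (log2 fold change -1.57, standard error 0.12). The other 2 probes of Car9 gave -1.24 and -0.98 in the same comparison, the last as at least 1.70-fold lower because it was not detected in the knockdown pool. The ES difference of 0.59 was the member just inside the threshold and is a lower bound of 1.24-fold against background. It fell under the threshold without control ES array 2 (0.55), control ES array 3 (0.45) or knockdown ES array 1 (0.54). In control cells Car9 was at least 5.38-fold higher in SNM than in ES cells and 2.32-fold higher again in neuronal cells. In knockdown cells it was 3.53-fold higher in SNM than in ES cells and then differed by -0.06.

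Car12, known from kidney, colon and choroid plexus, was highest in control SNM cells. It was 7.93, 7.87 and 7.90 in control and 8.18, 8.23 and 8.21 in knockdown ES cells. In SNM cells it was 9.11, 8.97 and 9.01 in control and 8.40, 8.26 and 8.07 in knockdown cells, and in neuronal cells 6.60, 6.50 and 6.60 against 7.07, 6.84 and 6.84. The knockdown arrays lay above control at the ES and neuronal stages and below control in SNM cells. The SNM difference was -0.79 (standard error 0.08), 1.72-fold lower in knockdown cells, and the other Car12 probe gave -0.81. The differences of 0.31 at the ES stage and 0.35 at the neuronal stage did not reach 1.5-fold. From SNM to neuronal cells Car12 was 5.51-fold lower in control and 2.51-fold lower in knockdown cells.

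Car4, known from lung and brain capillaries and from kidney, was higher in knockdown cells at both later stages. Its signals were 6.82, 6.93 and 6.99 in control and 7.26, 7.10 and 7.10 in knockdown ES cells. In SNM cells they were 7.20, 7.08 and 6.96 in control and 7.92, 7.91 and 7.95 in knockdown cells, and in neuronal cells 6.35, 6.43 and 6.22 against 7.61, 7.70 and 7.40. At each stage all knockdown arrays lay above all control arrays. The log2 fold change was 0.24 in ES, 0.85 in SNM and 1.24 in neuronal cells (standard error 0.08 each), which makes 1.18-fold, 1.80-fold and 2.35-fold.

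Car14, known from brain and retina, was also higher in knockdown cells at both later stages. It was not detected in ES cells of either kind. In SNM cells it was 6.92, 6.71 and 6.82 in control and 7.73, 7.59 and 7.60 in knockdown cells, and in neuronal cells 5.51, 5.49 and 5.64 against 7.15, 7.04 and 6.89. All knockdown arrays lay above all control arrays at both stages, by 0.82 and 1.48 on the log2 scale (standard error 0.09 each), or 1.77-fold and 2.79-fold. The other Car14 probe was dim, was detected in the knockdown pools and in neither control pool, and gave at least 1.27-fold at the SNM stage and at least 1.15-fold at the neuronal stage. Within each kind of cell, Car14 was lower in neuronal than in SNM cells, 2.42-fold in control and 1.53-fold in knockdown cells. The last value fell under 1.5-fold without knockdown SNM array 1 (log2 fold change -0.57) or knockdown neuronal array 3 (-0.54).

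Car11 belongs with Car8 and Car10 to the members that lost enzyme activity and is known from brain. It was 5.48, 6.005 and 5.58 in control and 5.44, 5.66 and 5.46 in knockdown ES cells. In SNM cells it was 8.05, 8.12 and 7.83 in control and 8.83, 8.72 and 8.70 in knockdown cells, and in neuronal cells 8.66, 8.44 and 8.47 against 10.29, 10.04 and 10.08. The ES arrays overlapped, and the knockdown arrays lay above control afterwards. The knockdown pool was 1.68-fold higher in SNM cells (log2 fold change 0.75, standard error 0.12) and 3.07-fold higher in neuronal cells (1.62). From ES to SNM cells, Car11 was 4.97-fold higher in control and 9.37-fold higher in knockdown cells, and from SNM to neuronal cells 1.43-fold and 2.62-fold higher. Car10, its inactive relative and no member here, went the other way at the neuronal stage. It was 7.79, 7.67 and 7.69 in control and 6.55, 6.37 and 6.40 in knockdown neuronal cells, 2.42-fold lower (log2 fold change -1.28, standard error 0.08, adjusted p = 4.59e-10 from limma).

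Of the other family genes, 5 of 6 had a probe, Car1, Car5b, Car6, Car10 and Car15, and Car5a had none. Car5b, a mitochondrial enzyme, was higher in knockdown neuronal cells by 0.72 (standard error 0.21, adjusted p = 0.00665 from limma) and differed by 0.30 at the SNM stage (adjusted p = 0.233 from limma). Car6, a secreted enzyme, and Car15 were not detected in any condition.

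Counted over the members, without the other family genes, the knockdown differences were few at the ES stage and ran both ways afterwards. In ES cells 1 of 7 tested members was called higher, Car9, and none lower, against 0.516% and 1.17% of all probes tested, where 30.6% of the calls were higher, or 41.7% without scaling between arrays. In SNM cells 4 of 8 were higher (Car3, Car4, Car11 and Car14) and 2 lower (Car2 and Car12), against 11% and 8.9% of all probes. In neuronal cells 3 of 8 were higher (Car4, Car11 and Car14) and 2 lower (Car9 and Car13), against 13.9% and 13.5%. Since these contrasts chose the members, nothing is read from the comparison with all probes. Over the tested members the log2 fold change had a median of 0.24 in ES, 0.26 in SNM and 0.46 in neuronal cells, and over all tested probes of 0.01, -0.04 and 0.01. Car4, Car11 and Car14 were higher in the knockdown pool at both later stages. Car2 and Car12 were lower in SNM cells and not called in neuronal cells, and Car9 and Car13 were not called in SNM cells and lower in neuronal cells.

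Between stages, more of the members were called higher than lower in SNM against ES cells. The members were chosen on differences between these conditions, so nothing is read from these counts beside all probes. Car14 was not detected in either ES pool and Car9 not in the control ES pool. There they were tested only through the SNM pool in which they are high. In control cells 5 of 8 were higher (Car3, Car9, Car11, Car12 and Car14) and 1, Car13, lower, against 23.7% and 25.4% of all probes, where 48.4% of the calls were higher, or 69.1% without scaling between arrays. In knockdown cells 5 were higher (Car3, Car4, Car9, Car11 and Car14) and 2 lower (Car2 and Car13), against 26.4% and 30.9%, where 46.1% of the calls were higher, or 59.2% without scaling. From SNM to neuronal cells most of those called were lower. In control cells 1, Car9, was higher and 4 were lower (Car2, Car4, Car12 and Car14), against 14.3% and 15.1% of all probes. The value of Car4 lay between -0.51 and -0.56, under 1.5-fold, with the other normalisations or an offset of 50. In knockdown cells 1, Car11, was higher and 4 were lower (Car2, Car3, Car12 and Car14), against 13.8% and 14.8%.

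How far the knockdown effect changed from stage to stage was estimated in the same model. From ES to SNM cells it passed 1.5-fold for 7 of 8 members, against 21.3% of all probes. The signed change of the knockdown minus control difference was 4.59 for Car3, 0.91 for Car11, 0.76 for Car14, 0.61 for Car4, -1.10 for Car12, -1.05 for Car2 and -0.89 for Car9. The values of Car14 and Car9 use ES signals that were not above background, for Car14 in both pools and for Car9 in the control pool, and their size is therefore uncertain. Another Car9 probe gave -0.33 in this step and was not called. From SNM to neuronal cells the change of the knockdown effect again passed 1.5-fold for 7 of 8 members, against 28.6% of all probes. The signed change was -4.42 for Car3, -1.28 for Car9, -0.67 for Car13, 1.13 for Car12, 0.93 for Car2, 0.87 for Car11 and 0.66 for Car14. For Car2 the difference went from -0.89 to 0.05 and for Car12 from -0.79 to 0.35, while for Car9 it went from -0.30 to -1.57 and for Car13 from -0.23 to -0.90. With the other normalisations or an offset of 50, 5 of 8 members passed in the first step, without Car4 and Car9, and 5 or 6 in the second, where Car14 fell to between 0.26 and 0.36. The value of 0.61 for Car4 fell under 1.5-fold without control ES array 3 (0.57), knockdown ES array 2 (0.58), knockdown ES array 3 (0.58) or control SNM array 3 (0.55).

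Several members are also known from cell types whose markers differed between the pools. Oligodendrocytes hold much Car2. Of the 12 oligodendrocyte markers, 9 of 11 tested were lower and none higher in knockdown SNM cells, with a median log2 fold change of -1.74, and 12 of 12 were higher in knockdown neuronal cells, with a median of 5.74. The mean log2 signal of the list lay between 8.73 and 8.82 on control and 7.37 and 7.45 on knockdown SNM arrays, and between 6.67 and 6.72 on control and 11.69 and 11.72 on knockdown neuronal arrays. Mbp, a main protein of myelin, differed at the neuronal stage by 5.93 (adjusted p = 1.62e-15 from limma). Car2 was lower with these markers in knockdown SNM cells, and at the neuronal stage it differed by 0.05 while they rose. Their part in the Car2 signal was not tested.

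Skeletal muscle and fat hold Car3. Of the 14 skeletal muscle markers, 9 of 12 tested were higher in knockdown SNM cells (median 0.71) and 12 of 13 were lower in knockdown neuronal cells (median -7.04). Their mean lay between 6.48 and 6.62 on control and 7.31 and 7.41 on knockdown SNM arrays, and between 11.14 and 11.19 on control and 5.09 and 5.36 on knockdown neuronal arrays. In knockdown SNM cells, where Car3 was at its highest, 12 of the 14 were detected, against 10 in control SNM cells. In neuronal cells Ckm, the muscle creatine kinase, was at least 34.6-fold lower in the knockdown pool (adjusted p = 1.95e-18 from limma), where Car3 was 0.56 higher. Of the 9 adipocyte markers, 4 were detected in control and 2, Adipoq and Lpl, in knockdown SNM cells, and of 4 tested none was called higher and 1 lower. Their mean lay between 5.33 and 5.48 on control and 5.10 and 5.21 on knockdown SNM arrays. The part of these cell types in the Car3 signal was not tested.

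**Figure D3:**
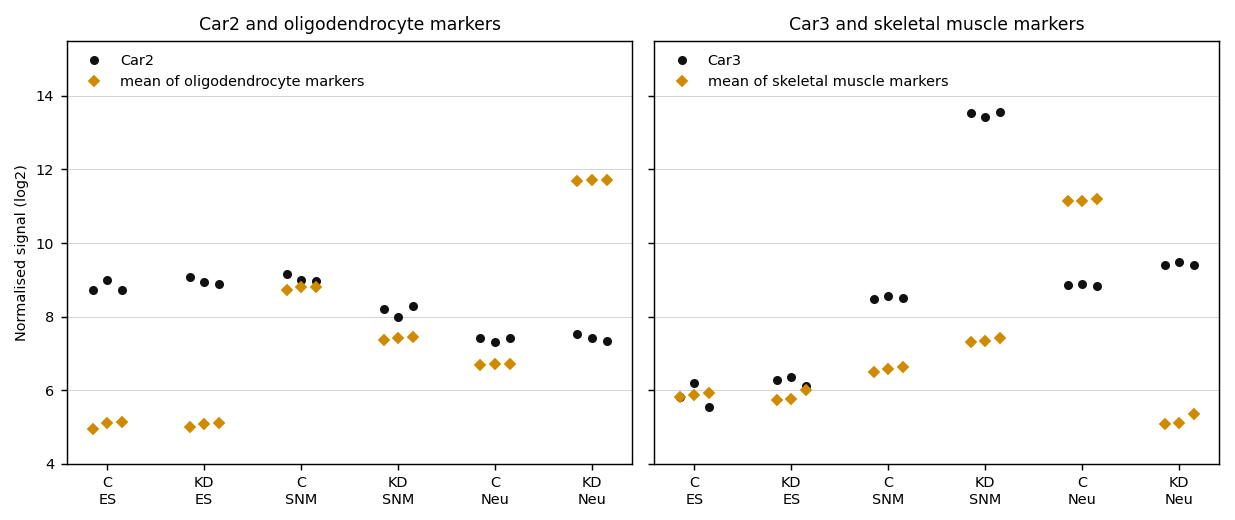
Normalised log2 signals (y axis) of Car2 beside the mean of 12 oligodendrocyte markers (left) and of Car3 beside the mean of 14 skeletal muscle markers (right) on the 3 arrays of each condition (x axis, C control, KD HPRT knockdown, Neu neuronal stage). The marker means are drawn from lowest to highest array, and levels of different probes are not comparable. Oligodendrocyte markers stand near 11.7 in knockdown neuronal cells while Car2 is near 7.43, and muscle markers stand near 11.1 in control neuronal cells while Car3 is near 8.86.

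Other lists moved beside the members as well. Of the floor plate and notochord markers, 4 of 4 tested were higher in knockdown SNM cells (median 1.66), among them Shh by 5.15 (adjusted p = 3.23e-14 from limma), and their mean lay between 5.69 and 5.91 on control and 7.58 and 7.73 on knockdown arrays. At the neuronal stage 3 of 4 were higher. Of the red cell markers, Hba-a1, Hbb-b1, Alas2 and Klf1 were not detected in any condition, and Hbb-bh1 was detected in knockdown SNM cells, the condition in which Car1 was. Of the choroid plexus markers, 2 of 6 tested were higher in knockdown SNM and 3 higher and 1 lower in knockdown neuronal cells, and Kl and Kcne2 were not detected in either. Of the astrocyte markers, 5 of 9 were higher in knockdown SNM cells and 6 higher and 1 lower in knockdown neuronal cells. Of 9 fibroblast markers, 7 were lower in knockdown neuronal cells, where Car9 was lower too. The mean of these 9 lay between 10.25 and 10.37 on control and 9.33 and 9.49 on knockdown arrays. In knockdown SNM cells 3 of the 9 were higher and none lower, while Car9 differed by -0.30. Of 8 ES cell markers, 5 were lower in knockdown SNM cells, where Car13 was not called. All 8 were lower in knockdown neuronal cells (median -1.94), where Car13 was lower too. Of 6 endothelium markers tested in knockdown SNM cells, 2 were higher and 1 lower. In knockdown neuronal cells 2 of 3 tested were lower and none higher, while Car4 was higher there. The part of these cells in the values of the members was not tested.

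The genes whose signal over the 18 arrays was most like that of a member were listed for the 3 members with the widest ranges, as Pearson correlations over 6 RNA pools measured 3 times each. For Car3 they included Angptl1 (0.986), Bmp3 (0.980), 9330162L04Rik (0.980) and Lmx1a (0.978). Like Car3, these peaked in knockdown SNM cells, with a mean signal of 8.04 for Lmx1a, a transcription factor of the roof plate and of dopaminergic precursors. For Car11, with a range of 4.62, they were Col16a1, Smpd1, Fkbp14, Vit and Tceal6, between 0.994 and 0.995. For Car9, with a range of 3.92, they were Lgals1 (0.985), Col5a2 (0.985), Car10 (0.983), Sh3yl1 and AW548124. Among the members themselves, Car3 and Car14 (0.876) and Car2 and Car12 (0.875) ran most alike, and Car11 and Car13 (-0.960) most opposed.

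Car9 is known to be induced in hypoxia, together with glycolytic and other genes. Of 20 such genes on the array, none of 17 tested was called at the ES stage, 3 of 18 were higher and 1 lower in knockdown SNM cells, and 6 were higher and 5 lower in knockdown neuronal cells, with a median log2 fold change of -0.07. Lower at the neuronal stage, like Car9, was Egln3, a prolyl hydroxylase that marks HIF for breakdown, by 1.18 (adjusted p = 1.38e-09 from limma). So were Ankrd37 with a log2 fold change of -1.06, Slc2a1, a glucose transporter, with -0.74, Pdk1 with -0.67 and Aldoa with -0.63. Higher were Mxi1 (1.12), Ndrg1 (0.84), P4ha1 (0.78), P4ha2 (0.76), Vegfa (0.68) and Bnip3 (0.59). From ES to SNM cells, where Car9 was higher in both kinds of cell, 12 of 18 hypoxia-responsive genes were higher and none lower in control and in knockdown cells alike. From SNM to neuronal cells none was higher and 7 were lower in control cells, while Car9 was higher there.

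The bicarbonate, proton and chloride transporters are the partners through which carbonic anhydrases act on pH. The list of these genes also holds Itpr1, the receptor bound by Car8, which is no such transporter. Of 31 genes of the list on the array, none of 13 tested was called in ES cells. In SNM cells 3 of 18 were higher and 1 lower in knockdown cells, with a median of 0.15. The anion exchangers Slc4a2 and Slc4a3 were higher by 0.67 and 0.74 (adjusted p = 0.000102 and 1.1e-05 from limma), and Slc12a5, the neuronal chloride exporter, by at least 2.22-fold. Slc4a1, the anion exchanger of red cells, was at least 1.61-fold lower. In knockdown neuronal cells 3 were higher and 4 lower, with a median of 0.08. Slc4a8, a sodium-driven bicarbonate exchanger, was higher by 1.43, Slc12a2, the chloride importer, by 1.23, and Bsg, a partner of the lactate transporters, by at least 1.42-fold. Slc4a3 (-1.03), the proton channel Hvcn1 (-0.74) and Slc9a8 (-0.61) were lower, and Slc12a5 was at least 1.66-fold lower. Slc4a3 and Slc12a5 thus changed sign between the stages.

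**Figure D4:**
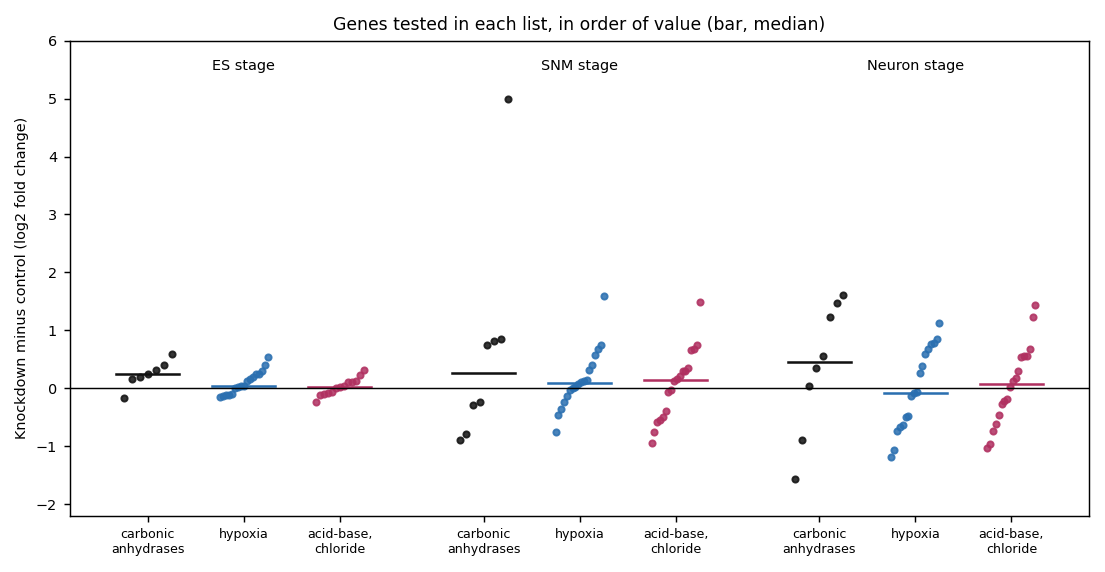
Knockdown minus control log2 fold change (y axis) of each tested gene, ordered by value, for the carbonic anhydrases, the hypoxia-responsive genes and the acid-base and chloride transport genes at the 3 stages, with the median of each list as a bar. The transport list includes the receptor Itpr1. Carbonic anhydrases run from -0.89 to 4.99 at the SNM stage and from -1.57 to 1.62 at the neuronal stage.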

How the data were processed

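Signals of 18 Illumina MouseWG-6 v2 arrays were analysed. The authors deposited a signal intensity per probe and array, averaged over beads with neither background subtraction nor normalisation, and a detection p-value. Groups follow the sample labels. Another deposited table gave the probe annotation, and its 72 columns of per-sample values, which no label pairs with a sample, were not used. The neqc function of limma 3.58.1 (R 4.3.3) corrected and normalised the signals, with an offset of 16 and the background taken from the detection p-values. A single limma model with 6 conditions gave all contrasts. A probe was tested if either condition of the contrast had it detected (p under 0.05) on all 3 arrays, and called if its fold change was 1.5 or more and its two-sided Benjamini-Hochberg adjusted p under 0.05. A condition without detection on all 3 arrays was set to the higher of the probe's own signal and the lowest detected signal of each array, and the fold is then given as "at least". Scripts were tested on simulated data. Arrays within a condition correlated at 0.9923 to 0.9968 and none were identical, and 3 arrays limit the precision.

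The members, gene lists and tests were chosen with earlier results of these data known. The genes named are the members, Hprt1, genes of the lists, and for the 3 members of widest range the 5 most correlated genes, apart from items not reported here. Sample titles number the arrays. Deviations of knockdown and control arrays of equal number from their condition means correlated across probes by -0.09, 0.03 and 0.10 at the ES, 0.49, 0.11 and 0.49 at the SNM and 0.61, 0.09 and 0.32 at the neuronal stage, so that only the SNM arrays passed 0.1 in every pair. The number as a block, other normalisations, filters and thresholds, the methods' unpaired test and leaving out each array were alternatives. The RNA-Seq experiment was not analysed here. Promoter sequences are from RefSeq (GRCm38.p6), 250 bases before each start site.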

Additional observations from a re-analysis of the deposited data

Results flagged for a closer look

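The knockdown effect on single carbonic anhydrases differed between stages by the interaction terms of the limma model, at an adjusted p under 0.05 and at least 1.5-fold. These contrasts overlap with those that chose the members, so the values are a description, and they rest on 1 RNA pool per condition. From ES to SNM cells the effect changed by 4.59 on the log2 scale for Car3, 0.91 for Car11, 0.76 for Car14, 0.61 for Car4, -1.10 for Car12, -1.05 for Car2 and -0.89 for Car9. From SNM to neuronal cells it changed by -4.42 for Car3, -1.28 for Car9, -0.67 for Car13, 1.13 for Car12, 0.93 for Car2, 0.87 for Car11 and 0.66 for Car14. The direction of the change turned between these steps for Car2, Car3 and Car12. The first-step values of Car14 and Car9 rest on ES signals not above background, in both pools for Car14 and in the control pool for Car9, and their size is uncertain. The other Car14 probe gave 0.65 and -0.05 in the 2 steps. Another Car9 probe gave -0.33, not called, in the first step and -0.92 in the second. The remaining Car9 probe was not tested in the first step and gave -0.80 in the second. Under quantile normalisation, 75th-percentile scaling, no scaling or an offset of 50, Car4 (0.46 to 0.52) and Car9 (-0.51 to -0.40) in the first step and Car14 (0.26 to 0.36) in the second fell under 1.5-fold, and so did Car13 in the second with quantile normalisation (-0.56) and 75th-percentile scaling (-0.51). Single outlying arrays were not looked for, since a condition has 3.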

How the results depend on the processing

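Of 71 differences of single members, 49 passed the threshold. No difference that was called in the main or an alternative run changed sign between them. Differences too small to be called could change sign when single arrays were left out. Car2 in knockdown against control neuronal cells then ran from -0.0061 to 0.0904, and Car12 in knockdown SNM against ES cells from -0.0413 to 0.1231. The ES call of Car9 was the least stable. The count of members higher in knockdown ES cells was 0 in place of 1 with quantile normalisation, scaling to the 75th percentile or no scaling (each without background correction), with an offset of 50, detection at p under 0.01, a minimum of 2-fold, the compared arrays alone, the methods' t-test after Benjamini-Hochberg adjustment, or the mean over detected probes, and 0 to 1 when single arrays were left out. The members lower in knockdown neuronal than SNM cells were 2 in place of 4 with 75th-percentile scaling (Car2 and Car14 lost) or a 2-fold minimum, and 3, without Car14, with quantile normalisation (-0.47), no scaling (-0.52), an offset of 50 (-0.51) or the mean over detected probes (-0.40). In control cells Car4 was lost under all 3 other normalisations and the offset of 50, which left 3 of 4 lower. The members lower in SNM than ES cells were 0 in place of 1 in control and 1 in place of 2 in knockdown cells without scaling or with a 2-fold minimum. That minimum also left 1 of 4 higher and 0 of 2 lower members in knockdown SNM cells, 1 of 2 lower in knockdown neuronal cells, and 3 of 7 changes of the knockdown effect in either step. Those 7 were 5 from ES to SNM cells and 5 or 6 from SNM to neuronal cells under the other normalisations or offset, and 6 in each with the mean over detected probes. Apart from the thresholds themselves, the cause was not tested.

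The array number as a replicate block changed no call of a member, and Car3 in SNM cells stayed at 4.99 with it. The methods' t-test without adjustment changed none of the calls it could be set against. Over all probes, the median SNM minus ES difference was -0.08 in control and -0.11 in knockdown cells, -0.17 and -0.21 with 75th-percentile scaling, and 0.10 and 0.05 without scaling. The probes called higher and lower in knockdown cells were 95 and 215 at the ES, 2278 and 1849 at the SNM and 2908 and 2824 at the neuronal stage, and quantile normalisation without background correction left 12 and 45, 1379 and 947, and 1854 and 1836. Signals near background, those of Car9 and Car14 in ES cells above all, give only bounds, and 1 RNA pool per condition leaves the spread between cultures unmeasured.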
